A study of Rattus norvegicus with 30 samples.

Results

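The response of the colon to irinotecan 6 h after the dose was compared with the response of the stomach, over all 31042 probe sets of an Affymetrix rat genome array that are not array controls. Irinotecan is a topoisomerase I inhibitor used against colorectal cancer, and damage to the gut is among its main side effects. The question put to each gene was whether its change from 0 h to 6 h was larger, smaller or opposite in the colon. The comparison uses 8 of the 30 arrays of the series, 2 each for stomach at 0 h, stomach at 6 h, colon at 0 h and colon at 6 h, picked by the tissue and time in their titles.

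The rats were female DA rats 10 weeks old. The rats at 6 h had received 1 intraperitoneal dose of irinotecan at 200 mg/kg under light halothane anaesthesia, and the rats at 0 h had received no irinotecan. Whether the rats at 0 h were anaesthetised or sham injected is not stated. The series holds no untreated rats at 6 h. In a change from 0 h to 6 h the drug, the handling and the time of day therefore cannot be told apart. Each time had 6 rats, and each array carried RNA of whole tissue pooled from 3 of them, so the pools hide the spread between rats. The 6 rats of a time gave both stomach and colon, which the fit treats as independent.

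Topoisomerase I relieves the twist that builds up ahead of polymerases on DNA. Irinotecan is turned into the active compound SN-38, which traps the enzyme on DNA, blocks replication forks and the elongation of transcripts, and arrests dividing cells before mitosis. The epithelium of the colon renews itself from dividing crypt cells, while the stomach holds long-lived acid-secreting parietal cells and pepsinogen-secreting chief cells beside its own proliferating zone.

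The tissues carried their own markers. The median of 16 stomach transcripts lay at 12.94 to 12.98 on the 4 stomach arrays and 6.53 to 6.85 on the 4 colon arrays, in log2 units. The median of 15 colon transcripts lay at 10.54 to 11.67 in colon and 6.75 to 7.00 in stomach. Replicate arrays correlated at 0.989 to 0.993 over probe sets, and array medians lay between 6.965 and 7.039. A level below about 7 is therefore below that of the middle probe set of an array. Colon 6 h replicate 1 stood apart, with 18 pancreatic acinar transcripts at a median of 8.79 against 6.94 on colon 6 h replicate 2 and 6.77 and 6.29 at 0 h. Insulin transcripts were high on both colon arrays at 6 h. Ins2 lay at 9.35 and 9.78 there, against 6.11 and 6.17 at 0 h. Stomach 6 h replicate 1 had the acinar median at 7.89, against 6.99 to 7.18 on the other stomach arrays. Squamous transcripts, which mark the forestomach, varied between stomach arrays, with list medians of 7.20 and 9.65 at 0 h and 8.33 and 8.54 at 6 h. The part of these transcripts in the results was not tested.

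The colon and the stomach differed in their response at 4 genes. Vldlr and Mipol1 had the more positive change in the colon (2 probe sets, 0.00644% of those tested), and Knstrn and Tm4sf20 the more negative (2, also 0.00644%). These 4 are 0.0129% of the probe sets, at an adjusted p under 0.05 in limma. At an unadjusted p under 0.05 there were 1744 (5.62%), 903 with the colon higher (2.91%) and 841 with the colon lower (2.71%). In the tissues taken singly, 737 probe sets changed in the colon (2.37%), 198 of them higher (0.638%) and 539 lower (1.74%), and 396 in the stomach (1.28%), 161 higher (0.519%) and 235 lower (0.757%). The unadjusted p was under 0.05 for 16.7% in the colon and 11.6% in the stomach. The median standard error of the difference between the responses was 0.17 log2 units, against 0.12 for the response of a single tissue. Each error given below is such a standard error from the fit, and each level or difference is in log2 units. The 95% interval of the difference lay within 1 log2 unit of 0 for 28505 probe sets, and the median distance from its centre to its end was 0.36.

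**Figure D1:**
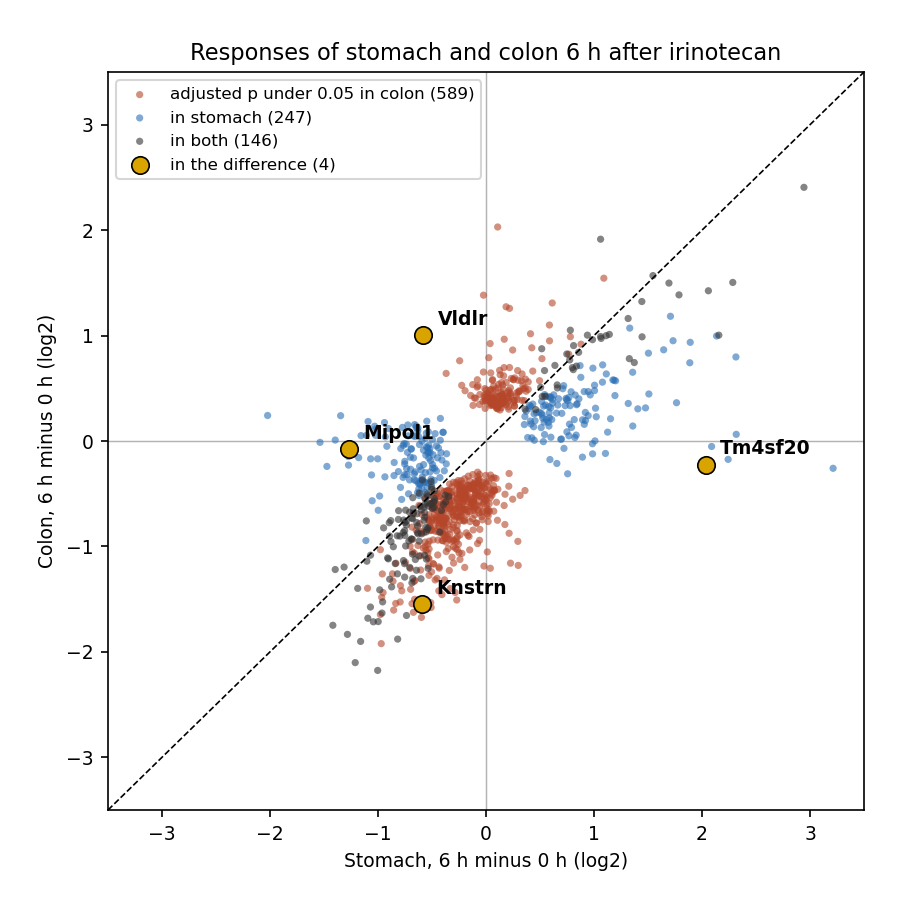
Change at 6 h in the stomach (horizontal axis, log2) against the colon (vertical axis, log2) for the 986 probe sets past an adjusted p of 0.05 in the colon, the stomach, both, or in the difference between them. Each point is 1 probe set, the dashed line marks equal change, and 870 of the points have the same sign in both tissues. Vldlr, Mipol1, Knstrn and Tm4sf20, drawn large, are past the threshold in the difference.

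Vldlr encodes the very-low-density lipoprotein receptor, which takes up triglyceride-rich lipoproteins and binds reelin. In the stomach it lay at 8.02 and 7.93 at 0 h and at 7.18 and 7.60 at 6 h. In the colon it lay at 8.81 and 8.25 at 0 h and at 9.60 and 9.46 at 6 h. The 6 h arrays were below the 0 h arrays in the stomach and above them in the colon, with no overlap in either. The colon rose by 1.00 ± 0.175 (adjusted p = 0.00309), and the stomach differed by -0.58 ± 0.175 (adjusted p = 0.125). The responses differed by 1.58 ± 0.25, a ratio of 3.00 (adjusted p = 0.0383). The other 3 probe sets of Vldlr had differences of 0.88, 1.01 and 0.75, all in the same direction, with adjusted p between 0.107 and 0.229.

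Mipol1 encodes a coiled-coil protein named for mirror-image polydactyly. Its stomach arrays fell from 9.15 and 9.04 at 0 h to 7.96 and 7.69 at 6 h. Its colon arrays lay at 5.96 and 5.89 at 0 h and at 5.77 and 5.92 at 6 h, all below the array medians. The gene was therefore measured well above the middle of the array in the stomach alone. The stomach fell by 1.27 ± 0.11 (adjusted p = 2.24e-05), the colon differed by -0.08 ± 0.11, and the responses differed by 1.19 ± 0.16, a ratio of 2.29 (adjusted p = 0.0152).

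Knstrn encodes a kinetochore protein that works with astrin in the alignment and separation of chromosomes. Both tissues fell, the colon further. In the colon Knstrn went from 8.76 and 8.82 at 0 h to 7.15 and 7.34 at 6 h, and in the stomach from 7.55 and 7.71 to 7.02 and 7.04. The tissues differed by over 1 log2 unit at 0 h (1.16 ± 0.10) and had come close at 6 h. The changes were -1.55 ± 0.10 in the colon (adjusted p = 8.13e-08) and -0.59 ± 0.10 in the stomach (adjusted p = 0.00405), and their difference was -0.95 ± 0.14, a ratio of 1.94 (adjusted p = 0.0254). A second, dimmer probe set of Knstrn gave a difference of -1.07 ± 0.39 (adjusted p = 0.698).

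Tm4sf20 encodes a membrane protein of the tetraspanin-like L6 family that is abundant in intestinal epithelium. It was high in all colon arrays, at 12.45 and 12.46 at 0 h and 12.10 and 12.37 at 6 h. In the stomach it lay below the array medians at 0 h, at 6.15 and 6.43, and above them at 6 h, at 7.92 and 8.73. The stomach rose by 2.03 ± 0.25 (adjusted p = 0.000394) and the colon differed by -0.22 ± 0.25, which gave a difference of -2.26 ± 0.36 (adjusted p = 0.0383). At 1, 24 and 72 h the stomach differed from the same 0 h arrays by 0.17, 0.33 and 0.58, with adjusted p of 0.976, 0.63 and 0.377.

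The single-array differences of colon and stomach were apart for each of these 4 genes: every pairing of a 6 h with a 0 h array in one tissue lay beyond every pairing in the other. Among all probe sets this held for 10.1% with the colon above and 8.79% with the colon below. The 4 calls depended on single arrays and on the fit, while the direction did not. With each of the 8 arrays left out in turn, Mipol1 was called in 5 of 8 fits, Knstrn in 4, and Vldlr and Tm4sf20 in 2 each, and all 4 kept their direction in all 8. Without colon 6 h replicate 1 Mipol1 alone was called. No probe set was called by limma without colon 0 h replicate 2, stomach 6 h replicate 2 or stomach 0 h replicate 1, where 1583, 1374 and 1424 had an unadjusted p under 0.05. The count was 3 without stomach 0 h replicate 2. It was 17 without colon 6 h replicate 2, and 12 without colon 0 h replicate 1 or stomach 6 h replicate 1. A fit of the 8 arrays alone called 3 other probe sets, of Ins1, Ins2 and Cyp19a1, and none of these 4. A fit of the 20 stomach and colon arrays and a fit with the replicate number as a block within time each called 0 in limma, with 1368 and 2028 at an unadjusted p under 0.05.

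**Figure D2:**
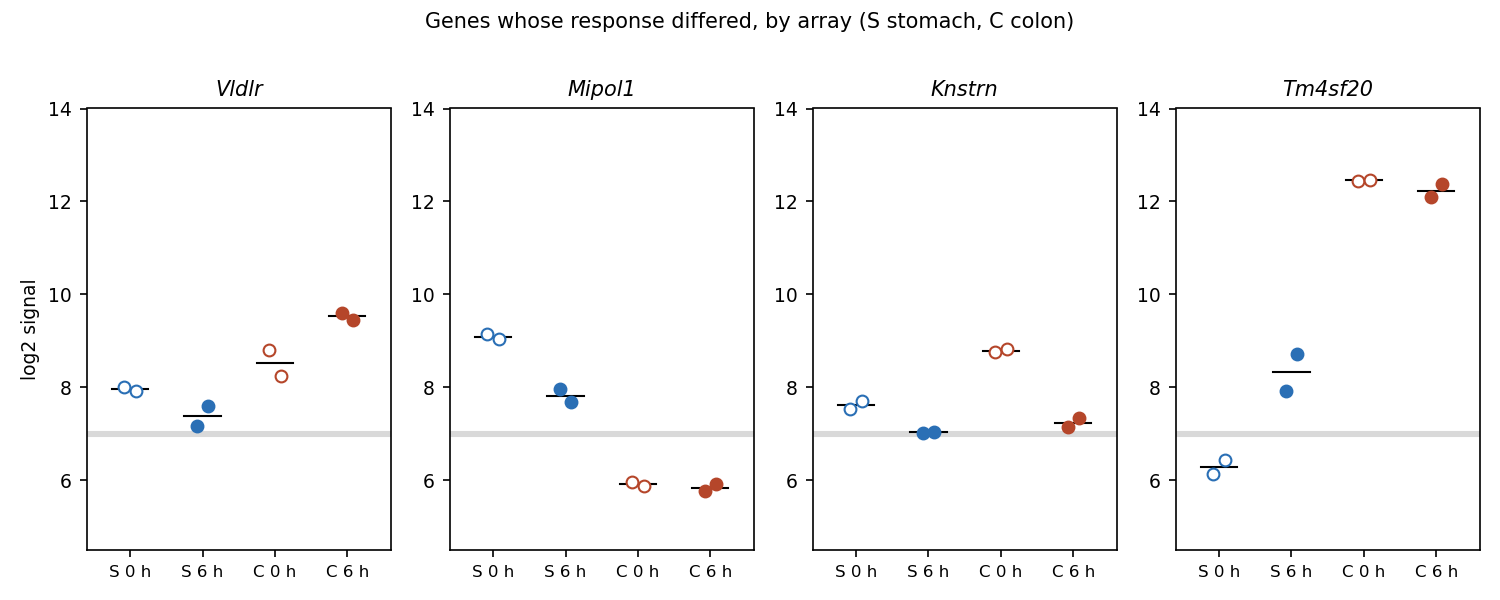
Log2 signal of the 4 genes called in the difference, by array. Points are arrays (open at 0 h, filled at 6 h, blue for stomach and red for colon), bars are means of 2 arrays and the grey band spans the array medians (6.965 to 7.039). Mipol1 lies below the band in the colon, and Tm4sf20 below it in the stomach at 0 h.

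The calls that the tissues shared ran in the same direction. Of the probe sets called in each tissue 147 were the same, which is 19.9% of the colon calls and 37.1% of the stomach calls. All 147 had the same direction, 37 higher and 110 lower, and 0 were called in opposite directions. Without colon 6 h replicate 1 the colon had 147 calls and the stomach 359, of which 68 were the same and 0 opposite. The 2 responses were each set against their own 0 h arrays. Of the 539 probe sets lower in the colon, 495 were also below 0 in the stomach, with medians of -0.69 and -0.36. Of the 235 lower in the stomach, 202 were below 0 in the colon, with medians of -0.66 in the stomach and -0.45 in the colon. The tissue that chose a set had the larger change in it, which the choice favours.

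The shared rises included stress hormone and metal response genes. Mt2A, a metal-binding metallothionein, lay at 10.06 and 9.96 in the stomach at 0 h and at 12.79 and 13.12 at 6 h. In the colon it lay at 9.98 and 10.02, then at 12.52 and 12.30. All arrays at 6 h were over 2 log2 units above those at 0 h. The changes were 2.94 ± 0.28 in stomach and 2.41 ± 0.28 in colon, and the difference of -0.54 ± 0.40 had a 95% interval from -1.365 to 0.289. Fkbp5, a glucocorticoid-induced co-chaperone of the steroid receptor, rose by 1.32 ± 0.24 in stomach and 1.16 ± 0.24 in colon, and its difference had an interval from -0.865 to 0.558. Fgl2, a membrane-bound prothrombinase also secreted by regulatory T cells, rose by 1.55 ± 0.33 and 1.57 ± 0.33. Adamts1, a secreted protease of versican and aggrecan, rose by 1.44 ± 0.25 and 1.32 ± 0.25. Kcnj8, the pore subunit of a potassium channel of smooth muscle and pericytes, rose by 1.06 ± 0.20 in stomach and 1.91 ± 0.20 in colon, with an adjusted p of 0.629 for the difference.

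The shared falls were mostly in genes that span long stretches of the genome. Gene spans were taken from RefSeq on GRCr8, which gave a value for 14167 of 14216 genes (99.7%), and each gene was read at its brightest probe set. This grouping was chosen after the values had been seen. The 72 genes lower in both tissues had a median span of 342 kb, against 22.3 kb for all genes, and 57 of them (79.2%) spanned 100 kb or more, against 13.7% of all genes. The 25 genes higher in both had a median span of 12.5 kb, and 3 of them spanned 100 kb or more.

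Among the 429 genes of 300 kb or more, 92 fell in the colon (21.4%) and 54 in the stomach (12.6%), with 44 falling in both. Among the 3879 genes under 10 kb, 28 fell in the colon (0.722%) and 22 in the stomach (0.567%). The background was 1.74% of probe sets lower in the colon and 0.757% lower in the stomach. Counted as genes, 327 of the 14167 with a span fell in the colon and 153 in the stomach. In the group of 300 kb or more 1 gene was called in the difference, Mipol1, and the median difference between the tissues was -0.01, with medians of -0.11 in colon and -0.13 in stomach. In the 180 of these genes whose mean over the 30 arrays was at or above that of the median probe set, the medians were -0.51 in colon, -0.37 in stomach and -0.16 for the difference.

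The number of long genes that fell moved with single arrays. Of the 429, the colon count was 36 without colon 6 h replicate 1 and 50 without colon 0 h replicate 1, and 61 and 81 without the other colon 0 h and 6 h arrays. The stomach count was 10 without stomach 0 h replicate 1, 22 without replicate 2, 18 without stomach 6 h replicate 1 and 8 without replicate 2. In each of these fits the share was above that of genes under 10 kb, at 8.39% against 0.258% in the colon without colon 6 h replicate 1 and 1.86% against 0.0773% in the stomach without stomach 6 h replicate 2.

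**Figure D3:**
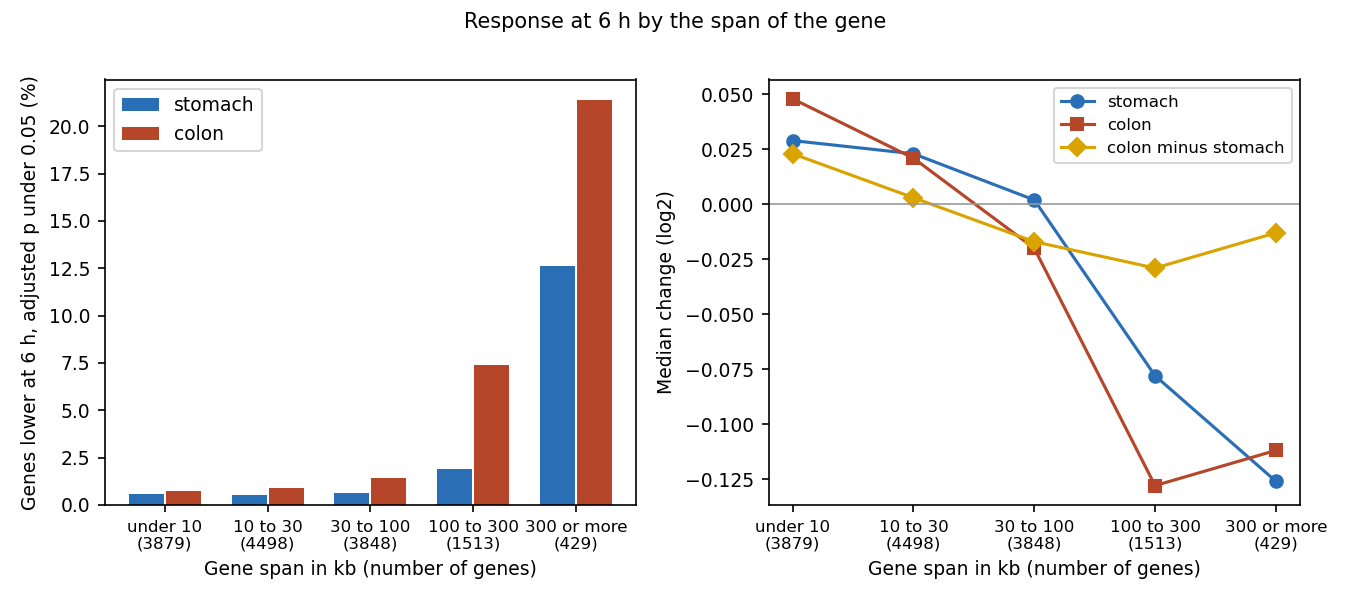
Response at 6 h by the span of the gene in kb, with the number of genes in brackets. Bars give the percentage of genes lower at an adjusted p under 0.05 in stomach and colon, up to 12.6% and 21.4% at 300 kb or more, and lines the median change and the median difference between the tissues, which stays between -0.03 and 0.02.

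Plcb1, a phospholipase C that acts downstream of G proteins and spans 711 kb, fell in both tissues. It went from 8.85 and 8.34 to 7.27 and 7.08 in the stomach, and from 8.87 and 8.51 to 6.90 and 6.99 in the colon. The 0 h and 6 h arrays did not overlap in either tissue. The changes were -1.42 ± 0.17 in stomach and -1.75 ± 0.17 in colon, and the interval of their difference ran from -0.84 to 0.18. Slc8a1, the sodium-calcium exchanger of muscle membranes (324 kb), fell by 1.31 ± 0.17 in stomach and 1.20 ± 0.17 in colon. Gphn, the scaffold protein gephyrin (529 kb), fell by 0.96 ± 0.135 in stomach and 1.53 ± 0.135 in colon. Ptprd, a receptor tyrosine phosphatase (2322 kb), fell by 1.00 ± 0.23 in stomach and 1.71 ± 0.23 in colon.

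Some long genes were lower in one tissue and at or below the array medians in the other. Tmem117, which spans 462 kb, went from 8.69 and 8.83 to 7.13 and 7.52 in the colon and lay at 6.93, 6.83, 6.56 and 6.64 in the stomach. Its responses differed by -1.15 ± 0.235 (adjusted p = 0.133). Ppp2r2b, a regulatory subunit of protein phosphatase 2A spanning 453 kb, went from 9.93 and 9.55 to 8.47 and 8.07 in the stomach and lay between 6.64 and 6.95 in the colon. Its responses differed by 1.23 ± 0.22 (adjusted p = 0.0587). Mipol1, at 335 kb, had the same form. Dym, a Golgi protein gene of 296 kb, was measured above the array medians in both tissues. It fell by 1.03 ± 0.12 in the colon and differed by -0.15 ± 0.12 in the stomach, with an adjusted p of 0.1 for the difference between the responses.

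Mitosis genes were mostly lower in both tissues, with larger changes and more calls in the colon. Of 39 measured, 34 fell in the colon, where 1.74% of all probe sets did, and 8 fell in the stomach, where 0.757% did; 0 rose in either. At an unadjusted p under 0.05 in limma 37 of the 39 were lower in the colon and 29 in the stomach, and 0 were higher in either. Over all probe sets, 16.7% in the colon and 11.6% in the stomach passed that level in either direction. The median change was -1.19 in the colon and -0.50 in the stomach, and the median difference was -0.67, against 0.02 over all probe sets. The difference was below 0 for 38 of 39 genes, and 31 of 39 had single-array differences in the colon all below those in the stomach, against 8.79% of all probe sets. None of the 39 was called in the difference by limma, and 26 had an unadjusted p under 0.05 with the colon lower, against 2.71% of all probe sets. The list was used with falls of mitosis genes in these samples already known, and is no independent evidence of the direction.

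The mitosis genes started higher in the colon and ended near the level of the stomach. At 0 h 30 of the 39 were higher in colon than in stomach at an adjusted p under 0.05, where 15.1% of all probe sets were, with a median difference of 0.76. The list median lay at 8.34 and 8.48 in the colon at 0 h and at 7.24 and 7.45 at 6 h. In the stomach it lay at 7.70 and 7.59 at 0 h and at 7.03 and 7.25 at 6 h. At 0 h the tissues stood clearly apart, and at 6 h the lower colon array reached the higher stomach array. The colon mean was above the stomach mean for 38 of 39 genes at 0 h and for 24 of 39 at 6 h. In whole tissue, fewer dividing cells and less RNA per cell cannot be told apart.

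**Figure D4:**
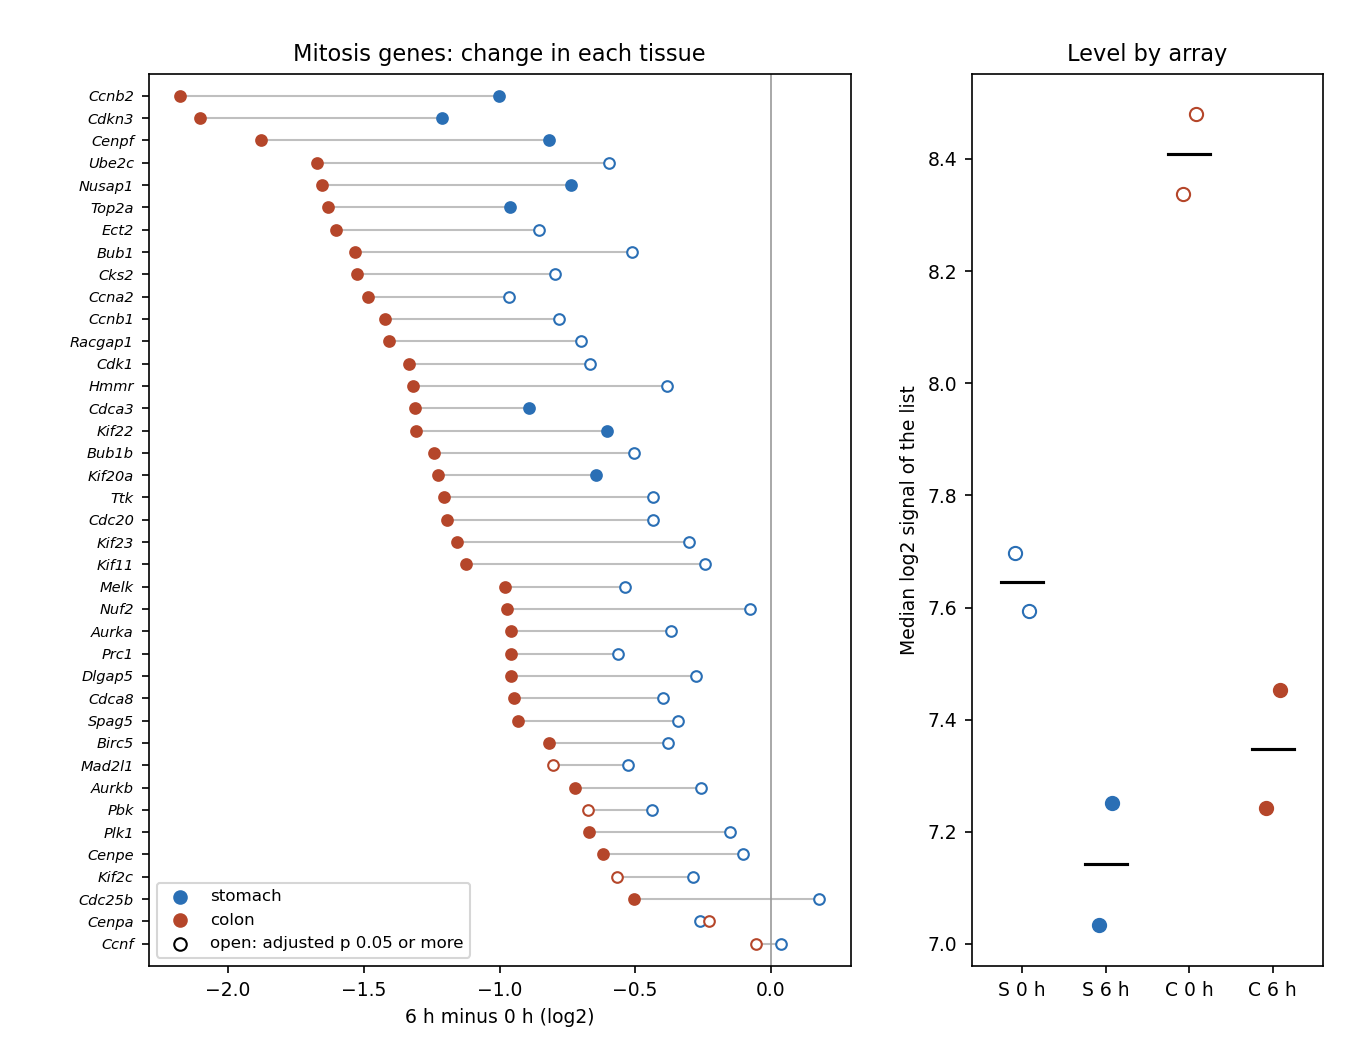
Left, change of 39 mitosis genes from 0 h to 6 h in log2 units in stomach (blue) and colon (red), filled where the adjusted p was under 0.05 (8 in stomach, 34 in colon). Right, the median log2 signal of the list on each array (open at 0 h, filled at 6 h; bars are means of 2 arrays), which starts higher in the colon (8.34 and 8.48) than in the stomach (7.70 and 7.59).

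Among the cyclins, Ccnb2, which activates the mitotic kinase Cdk1, went from 9.47 and 9.58 to 7.08 and 7.62 in the colon and from 8.24 and 8.22 to 6.98 and 7.48 in the stomach. Ccnb2 fell by 2.18 ± 0.21 in the colon and fell by 1.00 ± 0.21 in the stomach, and the difference was -1.17 ± 0.29 (adjusted p = 0.264). Among the spindle genes, Kif11, the motor that pushes spindle poles apart, lay at 8.31 and 8.30 in the colon at 0 h and at 7.19 and 7.17 at 6 h. In the stomach it lay at 8.01 and 7.86, then at 7.57 and 7.82. The colon groups were over 1 log2 unit apart, and the difference between the responses was -0.88 ± 0.20 (adjusted p = 0.221). Dlgap5, a spindle microtubule protein, differed by -0.68 ± 0.15 (adjusted p = 0.161), the smallest p of the list. Cenpf, a kinetochore protein, fell by 1.88 ± 0.20 in the colon and 0.82 ± 0.20 in the stomach. Genes of the list that were not called in either tissue were Mad2l1, Pbk, Kif2c, Ccnf and Cenpa.

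The size of the mitosis count also moved with single arrays. Without colon 6 h replicate 1, 22 of the 39 fell in the colon, with a median of -1.13. In the stomach none was called by limma without stomach 0 h replicate 1 or stomach 6 h replicate 1, while the median stayed at -0.45 and -0.39. The count there was 1 without stomach 0 h replicate 2, 4 without stomach 6 h replicate 2 and 5 without either colon 0 h array. The median difference stayed between -0.78 and -0.52 over the 8 fits that left out 1 array.

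The promoters shown are those of Knstrn and of 3 mitosis genes. These 3 had the smallest p for the difference among the mitosis genes with a promoter sequence, and the choice was made after their values were seen. The sequences are RefSeq's on GRCr8, from 250 bases before to 50 after the start, read 5′ to 3′ on the strand of the gene. Capitals mark 2 motifs searched on both strands: the cell cycle homology region TTTGAA, which binds the DREAM and MuvB complexes in cell cycle genes, and the CCAAT box CCAAT, which binds NF-Y. The 2 motifs share no bases in these promoters. The spans are chr3:126254446-126254745 on the plus strand for Knstrn, chr8:79981609-79981908 on the minus strand for Ccnb2, chr1:244536617-244536916 on the plus strand for Kif11 and chr15:23144127-23144426 on the minus strand for Dlgap5.
Knstrn: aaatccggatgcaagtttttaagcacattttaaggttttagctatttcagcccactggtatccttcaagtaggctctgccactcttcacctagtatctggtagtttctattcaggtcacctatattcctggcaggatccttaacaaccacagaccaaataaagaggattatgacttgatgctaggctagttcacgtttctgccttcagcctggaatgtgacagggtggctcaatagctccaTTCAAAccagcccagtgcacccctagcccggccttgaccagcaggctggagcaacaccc
Ccnb2: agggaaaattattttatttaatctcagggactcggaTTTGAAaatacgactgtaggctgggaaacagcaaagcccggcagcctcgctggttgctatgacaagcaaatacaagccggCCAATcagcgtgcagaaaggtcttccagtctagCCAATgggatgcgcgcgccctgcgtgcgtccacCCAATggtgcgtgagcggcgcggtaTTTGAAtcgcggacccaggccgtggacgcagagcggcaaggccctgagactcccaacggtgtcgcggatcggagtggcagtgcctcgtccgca
Kif11: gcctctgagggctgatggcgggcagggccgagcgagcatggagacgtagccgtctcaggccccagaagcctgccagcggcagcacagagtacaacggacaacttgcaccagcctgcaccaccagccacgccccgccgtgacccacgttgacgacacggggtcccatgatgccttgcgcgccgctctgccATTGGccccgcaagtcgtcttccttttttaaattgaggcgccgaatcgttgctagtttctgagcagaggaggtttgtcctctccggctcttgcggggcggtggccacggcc
Dlgap5: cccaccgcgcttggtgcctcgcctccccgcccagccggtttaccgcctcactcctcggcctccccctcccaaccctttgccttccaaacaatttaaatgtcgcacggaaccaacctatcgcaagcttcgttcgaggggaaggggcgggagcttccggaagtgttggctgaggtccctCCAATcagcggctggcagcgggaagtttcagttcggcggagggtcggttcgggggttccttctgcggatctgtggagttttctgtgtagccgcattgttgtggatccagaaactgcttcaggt

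TTTGAA stood in the promoters of 23 of the 34 mitosis genes that the promoter table held (67.6%), and in 18.07% of all 27457 promoters of that length. CCAAT stood in 27 of 34 (79.4%), against 37.74% of all. Ccnb2 held 2 copies of the first and 3 of the second. Knstrn held 1 copy of TTTGAA, on the minus strand, and Kif11 and Dlgap5 each held 1 CCAAT box. A match of letters does not show that a factor was bound.

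Of 40 DNA replication genes measured, 1 rose and 1 fell in the colon, where 0.638% of all probe sets rose and 1.74% fell, and none passed in limma in the stomach, where 9 were lower and 0 higher at an unadjusted p under 0.05. Their median change was -0.02 in the colon and -0.15 in the stomach, and the median difference was 0.15. Orc1, a subunit of the complex that marks replication origins, rose by 0.58 in the colon, and Pola1, the catalytic subunit of polymerase alpha, fell by 1.00.

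Several transcripts of intestinal epithelium rose in the stomach and were not called in the colon. They were grouped after their values had been seen. Tm4sf20, above, was the one called in the difference. Clca4, a regulator of calcium-activated chloride channels, went from 6.47 and 6.11 to 8.02 and 9.19 in the stomach and lay between 12.07 and 12.24 on the colon arrays. Prap1, a secreted protein of intestinal epithelium, went from 6.40 and 6.51 to 8.33 and 9.06 in the stomach and lay between 6.98 and 7.83 in the colon. Both were below the array medians in the stomach at 0 h. The stomach rose by 2.32 ± 0.36 for Clca4 and 2.24 ± 0.30 for Prap1, and the differences between the responses were -2.25 ± 0.51 (adjusted p = 0.212) and -2.42 ± 0.425 (adjusted p = 0.0587).

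The stomach also rose for Slc26a3, the chloride-bicarbonate exchanger of the colon, for the adhesion protein Cdh17 and for the intestinal transcription factor Cdx2. Slc26a3 rose by 1.41 in the stomach, from 5.48 and 5.95 to 6.83 and 7.41, against 12.22 to 12.66 in the colon. Cdh17 rose by 1.36, from 7.21 and 6.99 to 8.08 and 8.85. Cdx2 rose by 0.59, from 6.94 and 7.05 to 7.61 and 7.55. Their differences between the responses were -1.10, -1.22 and -0.77, with adjusted p of 0.167, 0.249 and 0.094. Muc13, a membrane mucin, rose by 0.99 in the stomach, and Alpi, the alkaline phosphatase of the brush border, by 1.32. S100g, the vitamin D dependent calcium-binding protein of the duodenum, rose by 3.21 ± 0.76 in the stomach, the most of the genes named here, with 6 h arrays at 8.65 and 10.06.

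Slc26a3, Cdh17 and Cdx2 were the 3 of the 15 colon marker transcripts that rose in the stomach. Car1 and Aqp8, at 12.30 to 13.44 and 10.395 to 11.62 in the colon, stayed at 6.38 to 6.55 on all 4 stomach arrays. Of the 10 small intestine transcripts 1 rose in the stomach, Alpi, while Apoa4 stayed between 6.66 and 7.02. The median change of the colon list in the stomach was 0.09. For the small intestine list it was 0.31, with members from -0.04 to 1.32. The median level of that list on the stomach arrays was 6.75 and 6.67 at 0 h and 7.095 and 7.40 at 6 h. The jejunum held Clca4, Prap1, Cdh17 and Tm4sf20 at 12.18 to 13.32 at 0 h. Whether tissue beside the stomach was in the 6 h pools was not tested. Without stomach 6 h replicate 2, which had the higher value for each of Tm4sf20, Clca4, Prap1, Slc26a3 and Cdh17, 1 of the 15 colon transcripts rose, and 2 did without stomach 6 h replicate 1 or stomach 0 h replicate 1.

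Several gastric transcripts fell in the stomach and were below or near the array medians in the colon. They too were grouped after their values had been seen. Hdc, which makes histamine in the enterochromaffin-like cells, went from 11.39 and 11.48 to 10.29 and 9.79 in the stomach, and lay at 6.50 to 6.60 on the colon arrays. Slc18a2, the vesicular monoamine transporter of the same cells, went from 10.00 and 10.08 to 9.27 and 8.63. Cyp19a1, the aromatase that parietal cells express, went from 11.002 and 10.05 to 8.82 and 8.19. Bhlha15, a transcription factor of secretory cells such as chief cells, went from 8.86 and 8.32 to 7.06 and 7.05. The stomach groups of these 4 genes did not overlap, and their changes in the stomach were -1.40, -1.09, -2.02 and -1.54. The differences between the responses were 1.41 ± 0.31, 1.28 ± 0.25, 2.27 ± 0.50 and 1.52 ± 0.33, with adjusted p of 0.191, 0.119, 0.204 and 0.187.

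Slc9a4, a sodium-proton exchanger of parietal cells, fell by 0.94 in the stomach, and Ptf1a, a transcription factor best known from the pancreas, by 0.72. Pga5, a pepsinogen of chief cells, fell by 0.93 ± 0.16 in the stomach, from 9.44 and 9.23 to 8.31 and 8.50, and lay at 6.04 to 6.23 in the colon. Kcne2, a potassium channel subunit of parietal cells, fell by 1.11 ± 0.24 at 1 of its 3 probe sets, and its brightest one differed by -0.83 ± 0.29 (adjusted p = 0.217). Kcnq1, the channel that Kcne2 joins, fell in both tissues, by 0.69 ± 0.15 in the stomach and by 0.93 ± 0.15 in the colon. Pga5, Kcne2 and Kcnq1 were picked after their values were seen. Atp4a, Atp4b and Chga were not called. Atp4a, the catalytic subunit of the proton pump, differed by 0.11 ± 0.47 in the stomach, Atp4b by -0.15 ± 0.42, and Chga, a protein of endocrine granules, by -0.27 ± 0.26. None of the 16 stomach marker transcripts, Kcne2 among them, passed in limma in either tissue at its brightest probe set, and 1 had an unadjusted p under 0.05, lower in the stomach. Hdc was also lower than on the same 0 h arrays at 24 h, by -1.40 (adjusted p = 0.0139), and at 72 h, by -1.29 (adjusted p = 0.00972), times at which 1 of the 2 stomach arrays stood apart in pancreatic or GAPDH signal.

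**Figure D5:**
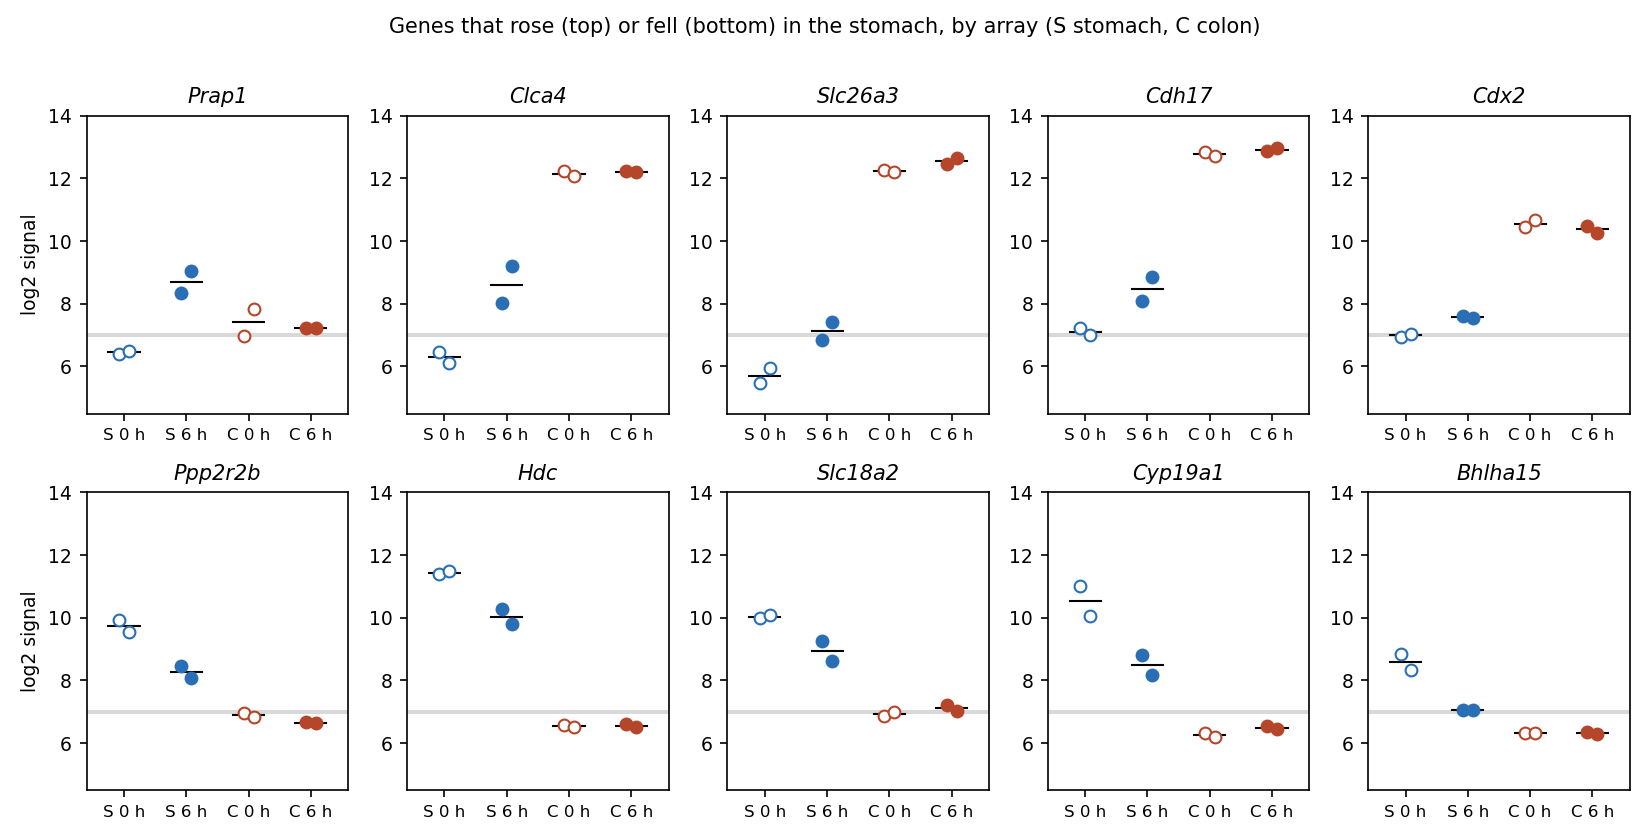
Log2 signal by array of 5 genes that rose (top) and 5 that fell (bottom) in the stomach at 6 h. Points are arrays (open at 0 h, filled at 6 h, blue for stomach and red for colon), bars are means of 2 arrays and the grey band spans the array medians. Clca4, Slc26a3, Cdh17 and Cdx2 are far above the band in the colon, and the 5 genes below are near or under it there.

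Immediate early genes, which cells switch on within minutes of a stimulus, had more called rises in the stomach than in the colon. Of 36 measured 11 rose in the stomach, where 0.519% of all probe sets did, and 1 rose in the colon, where 0.638% did. At an unadjusted p under 0.05 in limma 19 were higher in the stomach and 10 in the colon, and 0 were lower in either. Over all probe sets, 11.6% in the stomach and 16.7% in the colon passed that level in either direction. The median change was 0.53 in the stomach and 0.25 in the colon, and the median difference was -0.37. The list started higher in the colon, with medians of 8.46 and 8.83 at 0 h against 7.91 and 8.10 in the stomach. At 6 h the medians were 8.67 and 8.97 in the colon and 8.71 and 8.98 in the stomach. At 0 h 16 of the 36 were higher in the colon at an adjusted p under 0.05 in limma, where 15.1% of all probe sets were. None was called in the difference by limma, and 9 of 36 had an unadjusted p under 0.05 with the colon lower, against 2.71% of all probe sets. Egr1, a zinc finger transcription factor, went from 7.99 and 8.27 to 9.82 and 9.90 in the stomach and from 8.96 and 9.44 to 9.99 and 10.30 in the colon. The tissues stood apart at 0 h and came near each other at 6 h. The difference between the responses was -0.78 ± 0.39 (adjusted p = 0.895). Rhob, a small GTPase induced by growth factors and genotoxins, rose by 0.92 in the stomach and differed by 0.19 in the colon. Nr4a3, an orphan nuclear receptor, rose by 0.82 in the stomach and differed by 0.03 in the colon. Gem, a small GTPase that damps calcium channels, was the one that rose in both. Without stomach 0 h replicate 1 or stomach 6 h replicate 2 the stomach count was 1, and without either of the other 2 stomach arrays it was 6. The colon count was 0 without colon 0 h replicate 1 or either colon 6 h array.

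Some glucocorticoid targets rose. Of 24 measured 7 rose in the stomach, where 0.519% of all probe sets did, and 4 in the colon, where 0.638% did, and the others did not pass. The 4 in the colon were Mt2A, Fkbp5, Cebpd and Pdk4, and all 4 also rose in the stomach. Angptl4, an inhibitor of lipoprotein lipase that rises in fasting, went from 7.09 and 7.17 to 8.91 and 9.12 in the stomach and from 6.53 and 6.68 to 7.47 and 7.22 in the colon. Its stomach rise was 1.89 ± 0.28, its colon difference 0.74 ± 0.28 (adjusted p = 0.187), and the interval of the difference ran from -1.99 to -0.30, unadjusted (adjusted p = 0.66). Pdk4, the kinase that shuts off pyruvate dehydrogenase in fasting, rose by 2.29 ± 0.32 and 1.50 ± 0.32. Cebpd, a transcription factor of the acute phase, rose by 2.06 ± 0.32 and 1.43 ± 0.32. At another probe set, Pdk4 and Cebpd were called in the stomach alone, with colon differences of 0.53 and 1.00. The stomach count was 3 without stomach 6 h replicate 2 and 4 without stomach 0 h replicate 1. The colon count was 1 without colon 0 h replicate 2 and 2 without either colon 6 h array.

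Of 34 genes of fatty acid oxidation and fasting measured 5 rose in the stomach (Pdk4, Angptl4, Cpt1a, Plin2 and Acot2), against 0.519% of all probe sets, and 1 in the colon (Pdk4), against 0.638%, and the median difference was -0.06. With 1 stomach array left out the stomach count was 2 or 3, and with either colon 0 h array left out it was 3. The colon count was 0 without colon 0 h replicate 2 or colon 6 h replicate 1. Matrix proteases and their inhibitors had 5 of 28 rise in the stomach and 4 in the colon, against the same 0.519% and 0.638%. Adamts1, Adamts4 and Adamts9, secreted proteases of the extracellular matrix, rose in both. Timp1, an inhibitor of metalloproteases, rose by 1.50 in the stomach and differed by 0.83 in the colon. The stomach count was 1 to 4 with 1 stomach array left out, and the colon count 1 to 3 with 1 colon array left out.

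Of 26 p53 targets measured 2 rose in the colon (Gdf15 and Ccng1), where 0.638% of all probe sets did, and none passed in limma in the stomach, where 5 were higher and 1 lower at an unadjusted p under 0.05. The median change was 0.15 in both. Gdf15, a stress cytokine, lay at 6.44 and 6.65 in the colon at 0 h and at 7.56 and 7.46 at 6 h. In the stomach it lay between 6.38 and 6.68. The difference between the responses was 0.80 ± 0.27 (adjusted p = 0.627). For Mdm2, the ubiquitin ligase that degrades p53, the interval of the difference ran from -0.24 to 0.31. For Cdkn1a, the cell cycle inhibitor p21, it ran from -1.08 to 0.42. The colon count was 0 without colon 0 h replicate 1 or colon 6 h replicate 1, and 1 without colon 0 h replicate 2 or any 1 stomach array.

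Nfe2l2, the regulator of antioxidant genes, rose by 0.48 in the colon, and its responses differed by 0.67 ± 0.17 (adjusted p = 0.264). Txnip, an inhibitor of thioredoxin, rose by 0.83 in the stomach, and its responses differed by -0.78 ± 0.20 (adjusted p = 0.29). Gpt2, a mitochondrial alanine aminotransferase induced by ATF4, fell by 0.63 in the stomach. Its list, of ATF4 and serine synthesis, had 24 genes measured. Of these 3 rose in the colon, where 0.638% of all probe sets did, and 1 fell in the stomach, where 0.757% did. The median change of the list was 0.10 in the stomach and 0.185 in the colon. Hspa5, the main chaperone of the endoplasmic reticulum, lay at 11.71 and 11.58 in the stomach at 0 h and at 10.82 and 11.05 at 6 h, and overlapped between times in the colon. Its responses differed by 0.66 ± 0.28 (adjusted p = 0.826).

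Across all 28 pathway lists, with 763 distinct genes measured, no gene was called in the difference at its brightest probe set by limma, and the lists' counts at an unadjusted p under 0.05 ran up to 26 of 39 for mitosis. Vldlr, a member of the ATF4 list, was read there at a brighter probe set, at 1.01 ± 0.23 (adjusted p = 0.222). The median difference of a list ran from -0.67 for mitosis and -0.37 for immediate early genes to 0.19 for endoplasmic reticulum stress. Lists with a median difference within 0.05 of 0 were those of the proteasome (30 genes), oxidative stress defence (29), cholesterol synthesis (21), interferon response (31), prostaglandin (23), apoptosis regulators (31), crypt base and Wnt (31) and irinotecan activation and efflux (23). For 28 of the 30 proteasome genes and 42 of the 43 ribosome biogenesis genes the 95% interval of the difference lay within 1 log2 unit of 0. For the goblet cell and mucin genes this held for 3 of 16. The others include Muc13, with an interval from -1.70 to -0.52, and Muc2, the main secreted mucin of the colon, from -1.72 to -0.30, unadjusted (adjusted p = 0.292 and 0.627).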

How the data were processed

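RNA pools were hybridised to Affymetrix rat genome arrays, and the authors deposited log2 signals made with RMA, per the submitters' processing notes, whose version they do not give. RMA shares its normalization across arrays. The values ranged from 3.666 to 14.325 on the 8 arrays. Of 31099 probe sets 57 controls were left out. Gene symbols came from GEO's platform table: 20826 probe sets had 1 symbol, 436 several and 9780 none. With 2 pools per group, the number of arrays limits the precision.

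The comparison was fitted with limma 3.58.1 in R 4.3.3 (lmFit, eBayes, two-sided) on all 30 arrays as 15 groups, with 15 residual degrees of freedom and no filter. Benjamini-Hochberg adjustment ran over all 31042 probe sets, and an adjusted p under 0.05 was called. Genes in lists were read at their brightest probe set. The shares given beside them are of all probe sets, with or without a symbol, which is a different unit. Named genes were those called in the difference, the 10 of smallest p in each direction, up to 2 members of smallest p per list, 14 sentinel genes and the largest responses of each tissue; others (list members called in a tissue, long genes and transcripts of stomach and intestine) were picked after their values were seen. The members and lists were chosen with earlier results of these data known. The fit was also run on simulated data with independent noise on each array. That simulation had no rats shared between tissues and no single array set apart, so it cannot speak to those limits. Alternatives were quantile normalization, dropping dim probe sets, other array sets, variance models, array weights, replicate blocks and leaving out single arrays. The deviations of equal replicate numbers of stomach and colon correlated at -0.023 at 0 h, 0.041 at 1 h and 0.183 at 6 h. The correlations were 0.319 at 24 h and -0.215 at 72 h. The labels do not say whether equal numbers hold the same rats, and these correlations cannot settle it. The numbers were not taken as pairs.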

Additional observations from a re-analysis of the deposited data

Results flagged for a closer look

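The test of the difference between the tissues picked out 4 results. The response at 6 h was more positive in the colon than in the stomach by 1.19 log2 units for Mipol1 and by 1.58 for Vldlr. It was more negative in the colon by -0.95 for Knstrn and by -2.26 for Tm4sf20. Each difference was tested as the interaction of tissue and time in limma, with adjusted p of 0.0152, 0.0383, 0.0254 and 0.0383. Mipol1 and Tm4sf20 each lay below the array medians in one of the tissues at 0 h, the colon for Mipol1 and the stomach for Tm4sf20. Knstrn was near the array medians in the stomach at 6 h, at 7.02 and 7.04. Whether that level limited its fall in the stomach was not tested.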

How the results depend on the processing

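The count of probe sets called in the difference was 4, and ran from 0 to 17 with single arrays left out. It was 7 with quantile normalization, 11 with a random replicate block within time, 23 with array weights and 18 without the 6 of 30 arrays that stood apart by acinar, pepsinogen or GAPDH signal, of which colon 6 h replicate 1 is the one among the 8. It was 0 in limma with the 20 stomach and colon arrays (1368 at an unadjusted p under 0.05) and 0 with the replicate block within time (2028). A replicate block across times gave 6, the 8 arrays alone 3, dropping dim probe sets 4, and trended robust variances 5. The colon count of 737 was 380 with 20 arrays and 336 with the replicate block within time, and ran from 147 to 782 with single arrays left out. The stomach count of 396 was 607 with 8 arrays, 151 with 20 arrays, 176 with the replicate block within time, 797 with array weights and 1504 without the arrays that stood apart, and ran from 72 to 359 with single arrays left out. The colon was weakest without colon 6 h replicate 1, and the stomach without stomach 6 h replicate 2 (72) or stomach 0 h replicate 1 (73).

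Of the values of named genes under alternatives, 545 kept direction and side of the threshold, 39 newly passed it, 44 no longer passed and 10 turned direction. None of those 10 had been called in the difference. Cdkn1a gave 0.142 and Fos 0.095 at another probe set, and Dbp 0.005 with quantile normalization. Mdm2 gave -0.063 at another probe set, and between -0.055 and 0.123 with single arrays left out. Fkbp5 gave 0.110 without the arrays that stood apart, and between -0.451 and 0.145 with single arrays left out. The cause was not tested. The overlap without colon 6 h replicate 1 and the settings for gene lists and spans were added after seeing the data. With 2 arrays per group the median 95% interval, which is unadjusted, reached 0.364 log2 units to either side, so smaller differences were mostly not measurable. A call needed an adjusted p under 0.05, which larger differences could also miss. Prap1, at -2.42, was not called in limma (adjusted p = 0.0587).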
